A study of Mus musculus with 6 samples.

Results

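The endoplasmic reticulum (ER) stress and integrated stress response genes described here are Hspa5, Xbp1, Dnajb9, Herpud1, Sdf2l1, Atf4, Ddit3, Trib3, Asns and Chac1. They were picked by name, and all 10 were found among the 32212 rows of the count table and passed the filter on low counts, which kept 13867 genes. RNA came from the livers of male C57BL/6 mice aged 2 yr on a normal chow diet, 3 WT and 3 CgA-KO. CgA-KO mice carry a knockout of chromogranin A, a prohormone made mainly by endocrine and neuroendocrine cells. Each library was made from poly(A) RNA of 1 piece of whole liver, so that hepatocytes and all other liver cells were measured together, and fewer cells of a type and less RNA per cell cannot be told apart. The labels number the livers of each genotype and do not say whether litters, cages or days of collection were shared.

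The ER folds the proteins that a cell secretes, and hepatocytes secrete most plasma proteins. When unfolded proteins build up there, IRE1 (Ern1), ATF6 and PERK (Eif2ak3) start the unfolded protein response (UPR): IRE1 splices Xbp1 mRNA into the form that encodes an active transcription factor, ATF6 is cut to free another, and both raise chaperones and degradation factors. PERK phosphorylates eIF2alpha, as do other kinases that sense lack of amino acids, viral RNA or lack of heme, and this integrated stress response favours translation of ATF4, which drives genes of amino acid supply and, when stress lasts, Ddit3. Hspa5, Dnajb9, Herpud1 and Sdf2l1 are classical UPR targets, while Trib3, Asns and Chac1 are classical ATF4 targets.

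Letters of the response elements stood in some of the promoters. In RefSeq windows from 250 bases before to 50 bases after each gene's start (GRCm38.p6), 4 motifs were searched on both strands in 32851 windows, and all 10 genes had a window. The ER stress response element, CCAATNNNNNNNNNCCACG, was present in 0.119% of all windows and in that of Hspa5. ER stress response element II, ATTGGNCCACG, was present in 0.0365% of windows and in that of Herpud1. The C/EBP-ATF response element, TGATGNAA, was present in 3.97% of windows and in those of Chac1, Trib3, Asns and Herpud1. The unfolded protein response element, TGACGTGG, was present in 0.676% of windows and in none of the 10. The Trib3 match lay downstream of the RefSeq start, at bases 15 to 22. Xbp1, Dnajb9, Sdf2l1, Atf4 and Ddit3 held none of the 4 in their windows. Stretches of 4 genes follow as examples of the elements, that of Herpud1 because its window holds both an ER stress and a C/EBP-ATF element. Each runs 5′ to 3′ on the strand of its gene with 10 bases on either side, and the capitals mark the matches. They lie at chr2:34772015-34772053 on the plus strand for Hspa5, chr8:94386307-94386397 on the plus strand for Herpud1, chr6:7693215-7693242 on the minus strand for Asns and chr2:119351039-119351066 on the plus strand for Chac1. All stretches lie upstream of the RefSeq starts. The gene spans given further below are those of GENCODE, whose starts can differ, and the Hspa5 and Asns stretches lie inside them.
Hspa5: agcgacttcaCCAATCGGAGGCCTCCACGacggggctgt
Herpud1: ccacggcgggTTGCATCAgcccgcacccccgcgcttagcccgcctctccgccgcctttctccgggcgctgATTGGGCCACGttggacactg
Asns: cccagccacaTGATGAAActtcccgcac
Chac1: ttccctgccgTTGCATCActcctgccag
The first Herpud1 match and that of Chac1 are the same letters, TTGCATCA, on the strand opposite to the motif. These are matches of letters, and binding was not measured.

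Libraries held between 10558616 and 31087453 counts, and levels are counts scaled to the library total (CPM) after TMM normalization, given in the order of replicates 1, 2 and 3. The floor of 3 counts, scaled to the library total without TMM factors, lay between 0.0965 and 0.284 CPM, for counting error only. Chga, which encodes chromogranin A, had 0 counts in all 6 libraries and could not check the genotype labels. Differences are log2 fold changes of CgA-KO against WT from edgeR's quasi-likelihood test with their standard error (SE), and genes were called at an adjusted p under 0.05. Over all genes tested, 12.4% were called, 8.60% higher and 3.84% lower in CgA-KO, and the median log2 fold change was -0.01. An unadjusted p under 0.05 by edgeR was found in 4032 of the 13867 genes. The 1726 calls dropped to 744 without CgA-KO replicate 1, 976 without CgA-KO replicate 2, 841 without WT replicate 2 and 394 without WT replicate 3. The genotypes did not overlap in 33.6% of all genes, and in 14.6% all 3 CgA-KO livers lay below all 3 WT livers. With 3 livers on each side, the smallest p of an exact permutation test is 0.1.

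None of the 10 genes was called by edgeR. The UPR targets lay lower in CgA-KO livers and the ATF4 branch lay on both sides of 0. Herpud1 (0.559 of the WT level) and Sdf2l1 (0.609 of it) were furthest below WT, Trib3 was furthest above at 1.98-fold, and Atf4 and Ddit3 lay closest to equal levels, at 0.913 and 1.04 of WT. In all, 7 of the 10 log2 fold changes were below 0, their median was -0.30, and 2 genes had an unadjusted p under 0.05. Among all 13867 genes tested, 7021 were below 0 and 4032 had an unadjusted p under 0.05. In 3 of the 10 genes, Xbp1, Herpud1 and Sdf2l1, all CgA-KO livers were below all WT livers, beside 14.6% of all genes. In none were they all above. Counting both directions, 33.6% of all genes did not overlap.

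**Figure D1:**
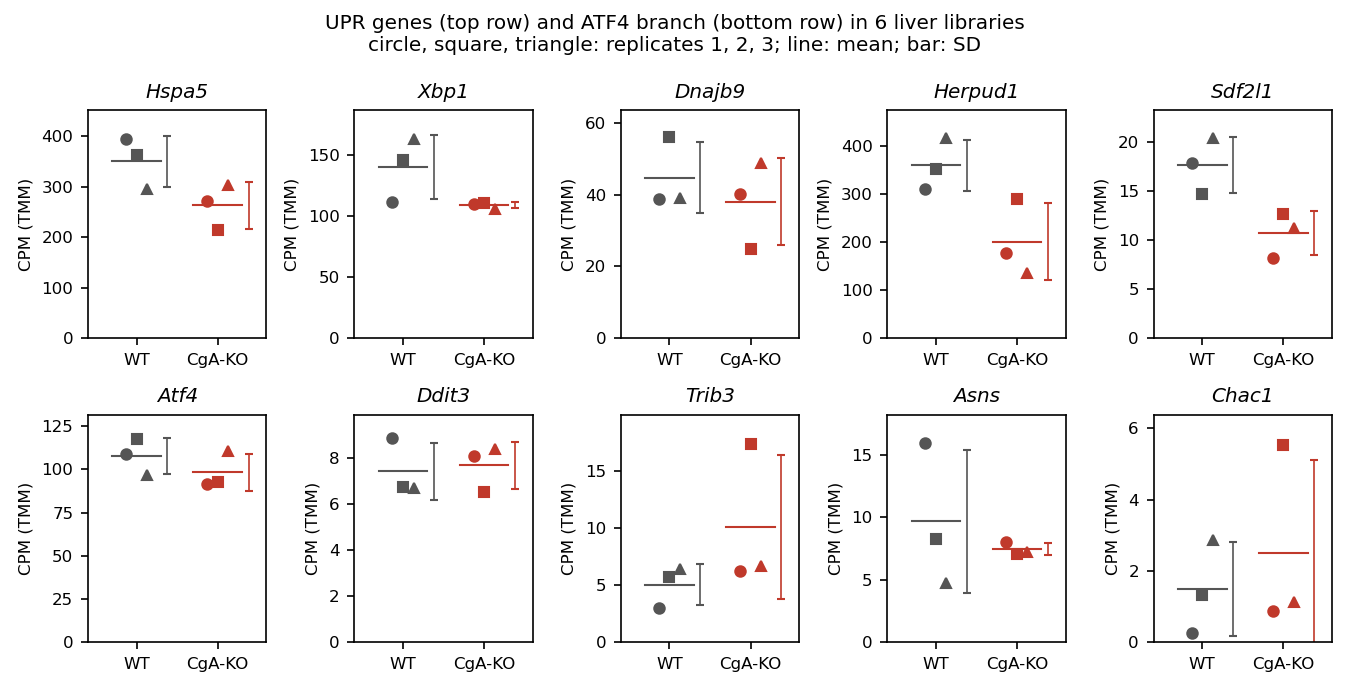
Level of each of the 10 genes in every library, in TMM-normalized CPM on an axis from 0, with WT in grey and CgA-KO in red, the line at the mean and the bar 1 SD to either side (n = 3, and the Chac1 bar of CgA-KO runs below 0, where it is not drawn). The red points of Herpud1 and Sdf2l1 all lie below the grey ones, and the red squares of Trib3 and Chac1, which are replicate 2, stand well above the other points.

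Hspa5, on chromosome 2 from 34771970 to 34777547 (GRCm38, plus strand), encodes BiP, the Hsp70 chaperone of the ER lumen that also holds the stress sensors inactive. Its level was 393, 363 and 295 CPM in WT livers and 271, 213 and 304 CPM in the CgA-KO group. The lowest WT liver lay below the highest CgA-KO liver, so the genotypes overlapped. The means were 350 ± 50.5 and 263 ± 45.9 CPM (SD, n = 3), a log2 fold change of -0.42 (SE 0.23, 95% interval -0.94 to 0.11) with an edgeR adjusted p of 0.27.

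Xbp1, on chromosome 11 from 5520659 to 5525893, encodes the transcription factor of the IRE1 arm. Counts per gene do not separate its spliced from its unspliced mRNA, so IRE1 activity was not measured. The level was 111, 146 and 163 CPM in the WT group and 110, 110 and 106 CPM in the CgA-KO group. The genotypes did not overlap, but WT replicate 1 stood next to CgA-KO replicates 1 and 2, and the CgA-KO livers varied far less (SD 2.50 CPM) than the WT livers (SD 26.2 CPM). This gave a log2 fold change of -0.37 (SE 0.20, interval -0.83 to 0.09, edgeR adjusted p = 0.268).

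Dnajb9, on chromosome 12 from 44205559 to 44210326 (minus strand), encodes ERdj4, a co-chaperone of BiP and a target of spliced XBP1. WT livers had 38.8, 56.3 and 39.3 CPM and CgA-KO livers had 40.2, 25.0 and 49.0 CPM. The genotypes overlapped, with CgA-KO replicate 2 lowest of all. The log2 fold change was -0.24 (SE 0.27, interval -0.84 to 0.37, edgeR adjusted p = 0.609), and it was 0.04 without that liver.

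Herpud1, on chromosome 8 from 94386438 to 94395377, encodes a membrane protein of the ER that helps to send misfolded proteins to degradation. Its level was 310, 352 and 416 CPM in WT livers and 176, 289 and 136 CPM in the CgA-KO group. All CgA-KO livers lay below all WT livers, with replicate 2 closest to them. Mean levels were 359 ± 53.4 and 201 ± 79.3 CPM, and the difference on the log2 scale, -0.84 (SE 0.30, interval -1.52 to -0.16) had an adjusted p of 0.102 by edgeR. DESeq2 gave -0.86 with an adjusted p of 0.0283, and edgeR without CgA-KO replicate 2 gave -1.16 with 0.0401. Under these settings 6.35% (DESeq2) and 1.90% (edgeR without that liver) of all genes were called lower.

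Sdf2l1, on chromosome 16 from 17130138 to 17132383 (minus strand), encodes an ER protein that works with BiP and its co-chaperones to keep folding proteins soluble. It had 17.8, 14.7 and 20.4 CPM in the WT group and 8.22, 12.7 and 11.3 CPM in the CgA-KO group. All CgA-KO livers again lay below all WT livers. The log2 fold change was -0.72 (SE 0.23, interval -1.24 to -0.20), with an adjusted p of 0.075 by edgeR and of 0.0435 by DESeq2.

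Added up, these 5 UPR genes amounted to 871 to 933 CPM in WT livers and 606 to 650 CPM in the CgA-KO group. Their sum thus did not overlap after TMM normalization. The sum of all genes tested did not overlap either, at 944956 to 1322170 CPM in WT and 891718 to 923408 CPM in CgA-KO livers. TMM factors were 0.756 to 1.06 in WT and 1.08 to 1.12 in CgA-KO libraries, and sums scaled by library size alone were not compared. All 5 log2 fold changes were below 0, with a median of -0.42, although Dnajb9 lay above 0 in 2 of the other fits, at 0.06 when libraries were scaled by library size alone and at 0.04 without CgA-KO replicate 2. Library size alone moved the median of all genes to 0.26, and the median of the UPR genes was then -0.15. The sum of the UPR genes is carried by Hspa5, Herpud1 and Xbp1, the most abundant of the 5.

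Atf4, on chromosome 15 from 80255184 to 80257541, encodes the central transcription factor of the integrated stress response, which is controlled largely at translation, a step that RNA counts do not measure. WT livers had 109, 117 and 96.6 CPM and CgA-KO livers had 91.8, 92.4 and 111 CPM. The genotypes overlapped, and Atf4 varied least of the 10 genes among WT livers (a coefficient of variation of 9.69%). Its log2 fold change was -0.13 (SE 0.19, interval -0.55 to 0.29, edgeR adjusted p = 0.688), and 0.14 with library size alone.

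Ddit3, on chromosome 10 from 127290774 to 127296288, encodes CHOP, the factor tied to cell death in lasting ER stress. It had 8.87, 6.76 and 6.69 CPM in the WT group and 8.12, 6.53 and 8.43 CPM in the CgA-KO group. The genotypes lay on top of each other, with a log2 fold change of 0.05 (SE 0.23, interval -0.48 to 0.58, edgeR adjusted p = 0.911). The symbol belongs to 2 genes in the annotation, and the gene overlaps Mars1 (Mars in the annotation) on the opposite strand. The use of strand in counting is not given in the sources used here, so the counts of Ddit3 are uncertain to that extent.

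Trib3, on chromosome 2 from 152337422 to 152344032 (minus strand), encodes a pseudokinase that ATF4 and CHOP induce and that restrains AKT signalling. The level was 3.05, 5.70 and 6.48 CPM in WT livers and 6.27, 17.4 and 6.68 CPM in the CgA-KO group. CgA-KO replicate 2 held 2.69 times the mean of the other CgA-KO livers, which themselves lay at the upper end of the WT range. edgeR put the log2 fold change at 0.98 (SE 0.45, interval -0.02 to 1.99, adjusted p = 0.181) and 0.37 without that liver.

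Asns, on chromosome 6 from 7675169 to 7693254 (minus strand), encodes asparagine synthetase. WT livers ranged widely, at 15.9, 8.30 and 4.79 CPM, whereas CgA-KO livers lay close together, at 7.98, 7.07 and 7.26 CPM. All CgA-KO livers thus fell inside the WT range. The log2 fold change was -0.36 (SE 0.39, interval -1.24 to 0.51, edgeR adjusted p = 0.582), and it turned to 0.23 without WT replicate 1, the liver with the highest level and the lowest depth.

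Chac1, on chromosome 2 from 119351229 to 119354381, encodes an enzyme that degrades glutathione. It had 3, 31 and 68 counts in WT and 19, 174 and 25 counts in CgA-KO libraries, or 0.269, 1.32 and 2.88 CPM against 0.882, 5.52 and 1.12 CPM. WT replicate 1 stood at the floor and CgA-KO replicate 2 at 5.51 times the mean of the other CgA-KO livers. The log2 fold change was 0.71 (SE 0.84, interval -1.19 to 2.61, edgeR adjusted p = 0.625), and it was -0.58 without CgA-KO replicate 2, so that its direction rested on 1 liver. In sum the 5 genes of the ATF4 branch reached 117 to 139 CPM in the WT group and 115 to 134 CPM in the CgA-KO group.

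**Figure D2:**
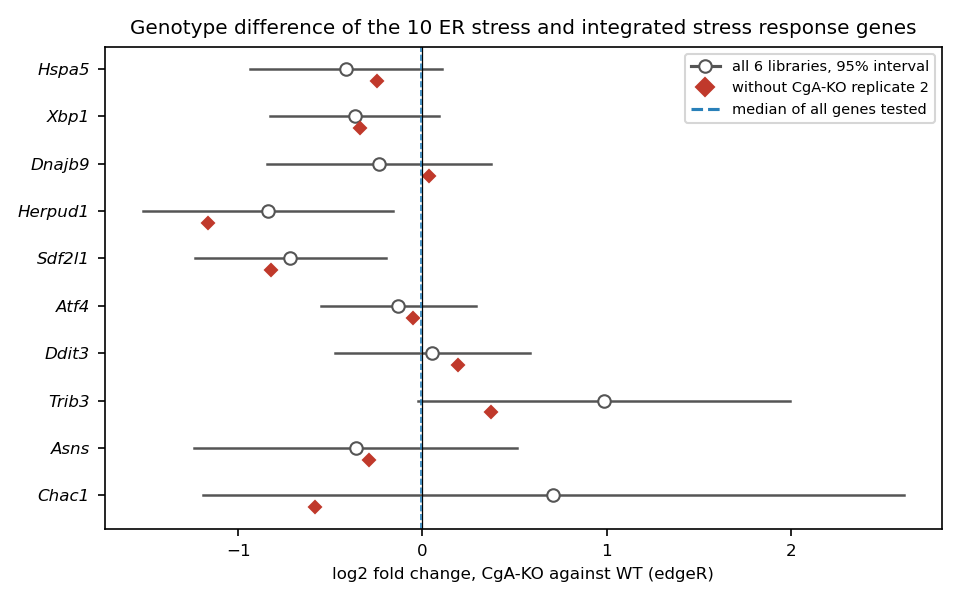
Log2 fold change of CgA-KO against WT for each gene by edgeR, with open circles and bars for all 6 libraries and the 95% interval, red diamonds for the fit without CgA-KO replicate 2, and a dashed line at the median of all genes (-0.01). The intervals of Herpud1 and Sdf2l1 lie wholly below 0 before adjustment, and the diamonds of Trib3, Chac1, Herpud1 and Dnajb9 are far from their circles.

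Levels between genes were compared per kilobase of merged exons, in WT livers. Herpud1 was highest at 154 CPM per kilobase, followed by Hspa5 at 82.8, Atf4 at 45.7 and Xbp1 at 43.1. The last pair did not differ beyond their spread (SD 4.42 and 8.07). Dnajb9 at 17.6 and Sdf2l1 at 15.9 were likewise within their spread of each other (SD 3.91 and 2.59). Ddit3 (4.34), Asns (3.54), Trib3 (2.39) and Chac1 (0.910 CPM per kilobase) were low, with SDs of 0.721, 2.09, 0.847 and 0.803. The order thus ran from Herpud1, Hspa5, Atf4 and Xbp1 down to Ddit3, Asns, Trib3 and Chac1.

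Relative to the WT mean, single livers departed in different genes. CgA-KO replicate 2 stood at -0.72 for Hspa5 and -0.83 for Dnajb9, but at 1.69 for Trib3 and 1.60 for Chac1, on the scale of log2 of CPM + 0.5. In Herpud1, CgA-KO replicates 1 and 3 stood lower, at -1.02 and -1.39, than replicate 2 at -0.31, and in Sdf2l1 replicate 1 was lowest at -1.06. The liver with the highest Trib3 and Chac1 was not high in Asns, the other ATF4 target, where it stood at -0.43.

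**Figure D3:**
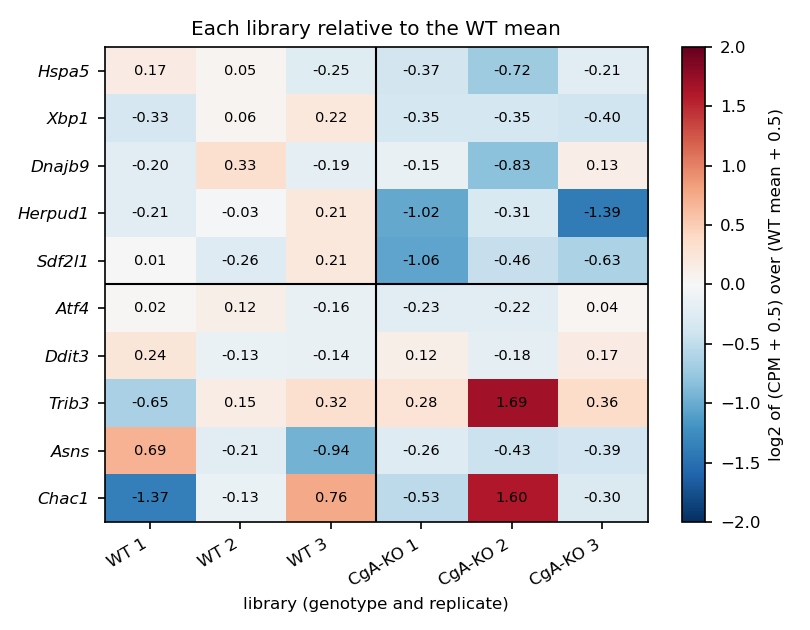
Each library's level relative to the WT mean, as log2 of (CPM + 0.5) over (WT mean + 0.5), for the UPR genes above the horizontal line and the ATF4 branch below it, with WT to the left and CgA-KO to the right of the vertical line. Blue fills most UPR cells of CgA-KO, from -1.39 to 0.13, and the darkest red is Trib3 and Chac1 in CgA-KO replicate 2.

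The sensors were examined next. Of 14 UPR sensors, eIF2alpha kinases and phosphatases, all tested, none was called by edgeR. At an unadjusted p under 0.05 there were 3 of the 14, beside 4032 of all 13867 genes, and DESeq2 called 2. Of the 3, Ern1 lay lower in CgA-KO livers, whereas Mbtps2 and Eif2ak2 lay higher without overlap. Mbtps2 gave a log2 fold change of 0.69 and Eif2ak2 gave 0.65 (edgeR adjusted p = 0.0527 and 0.0651). Mbtps2 and Eif2ak2 were named after their values were seen. The median log2 fold change of the 14 was -0.03, with 7 below 0. Ern1, which encodes IRE1, had 72.7, 47.9 and 72.6 CPM in the WT group and 47.5, 29.3 and 34.0 CPM in the CgA-KO group. The CgA-KO livers lay below the WT livers, although WT replicate 2 and CgA-KO replicate 1 were almost level. Its log2 fold change was -0.80 (SE 0.25) with an adjusted p of 0.0661 by edgeR, 0.0217 by DESeq2 and 0.0473 by edgeR without WT replicate 2 (-0.98). For Eif2ak3 (PERK) the log2 fold change was 0.43 (SE 0.23, edgeR adjusted p = 0.246). Atf6 gave -0.08 (SE 0.18), Eif2ak4, the amino acid sensor GCN2, gave -0.06 (SE 0.22), and Ppp1r15a, the inducible eIF2alpha phosphatase subunit GADD34, gave 0.09 (SE 0.22), with edgeR adjusted p of 0.817, 0.882 and 0.826. The intervals of these 3 ran from -0.48 to 0.32, from -0.56 to 0.43 and from -0.40 to 0.58.

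ER chaperones and folding enzymes lay lower in CgA-KO livers as a list. Of 24 genes 23 were tested (Cdnf fell under the filter), and 21 log2 fold changes were below 0, with a median of -0.48. edgeR called 2 lower and none higher (DESeq2 called 6 in all), which is 8.70% of the list beside the 3.84% of all genes called lower. In 16 genes all CgA-KO livers lay below all WT livers, beside 14.6% of all genes. The summed level was 3763 to 4108 CPM in the WT group and 2440 to 2996 CPM in the CgA-KO group. On this TMM scale the sum of all genes tested did not overlap either. With library size alone, 16 were below 0 and the median was -0.21, against 0.26 for all genes.

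Fkbp11, a peptidyl-prolyl isomerase of the secretory pathway, fell from 15.3, 14.0 and 9.74 CPM in WT to 3.57, 3.62 and 4.57 CPM in the CgA-KO group. That is 3.31-fold lower, a log2 fold change of -1.73 (SE 0.26, edgeR adjusted p = 0.00603), called in every alternative fit. Txndc5, an ER protein disulfide isomerase, fell from 148, 157 and 158 CPM to 78.7, 100.1 and 80.9 CPM, -0.83 as log2 fold change (SE 0.19, edgeR adjusted p = 0.024). The Txndc5 call was lost without CgA-KO replicate 1 (-0.74), CgA-KO replicate 3 (-0.76) or WT replicate 3 (-0.82), each of which left 1 call in the list, and with library size alone (-0.56). Hsp90b1, which encodes GRP94, the Hsp90 of the ER, had 572, 511 and 489 CPM in the WT group and 331, 379 and 315 CPM in the CgA-KO group, a log2 fold change of -0.62 (SE 0.21) with an adjusted p of 0.088 by edgeR and 0.00555 by DESeq2. Calr, Pdia3 and P4hb were chosen after their values were seen. Their mean levels were 459 against 324, 332 against 204 and 1108 against 794 CPM in the WT group and CgA-KO livers. None of the 3 was called by edgeR, and none overlapped between the genotypes.

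**Figure D4:**
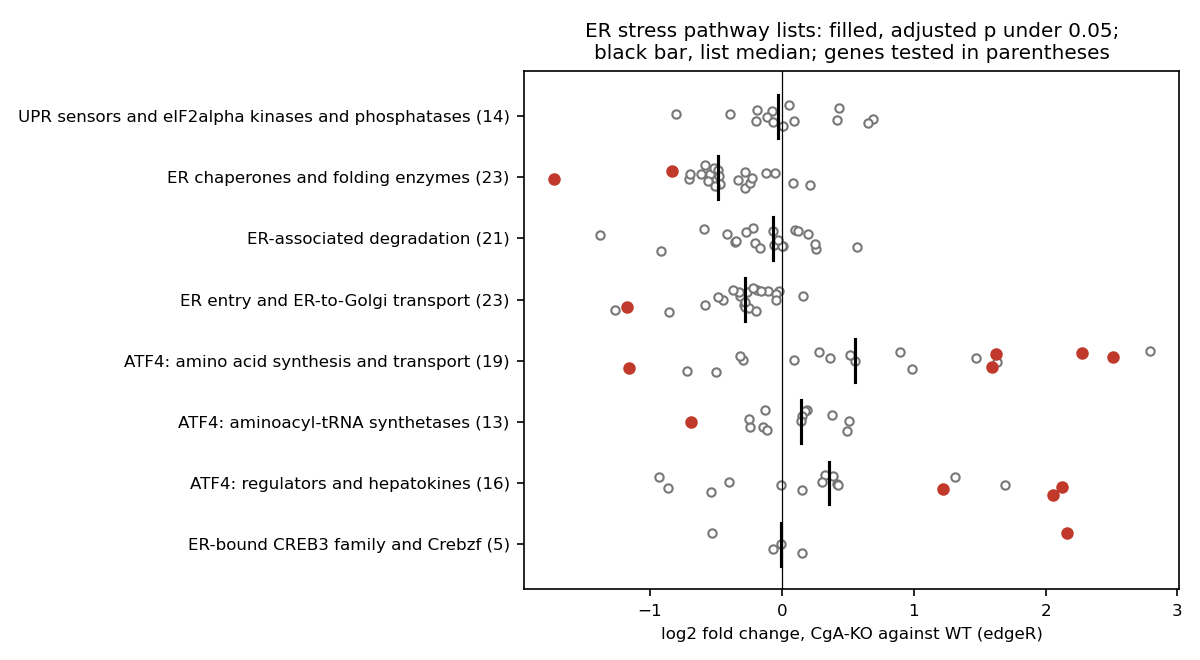
Log2 fold change of CgA-KO against WT (edgeR) of each tested gene in the 8 lists of the pathway, with filled red points for genes called at an adjusted p under 0.05 and a black bar at the median of each list. The points of chaperones and of ER entry lie mostly left of 0, with medians of -0.48 and -0.28, and the called points of the ATF4 lists lie mostly at the far right.

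Steps on either side of folding were also counted. Of 24 genes for entry into the ER and transport to the Golgi, 23 were tested (Kdelr3 fell under the filter), 22 were below 0 and the median was -0.28. With library size alone 13 were below 0 and the median was -0.01, against 0.26 for all genes. edgeR with TMM called 1 gene, 4.35% of those tested, beside 12.4% of all genes. This was Sec61b, a subunit of the channel through which proteins enter the ER. It fell from 61.8, 92.1 and 60.7 CPM in WT to 26.6, 27.5 and 41.3 CPM in the CgA-KO group, a log2 fold change of -1.17 (SE 0.25, adjusted p = 0.0194). The call was lost without CgA-KO replicate 1 (-1.02), CgA-KO replicate 2 (-1.03) or WT replicate 3 (-1.28), which left 0 calls, while 2 genes were called without WT replicate 1 and 4 by DESeq2. Among 21 genes of ER-associated degradation, the process that Herpud1 serves, edgeR called none. There were 3 of the 21 at an unadjusted p under 0.05, beside 4032 of all 13867 genes. DESeq2 called 2, and 1 was called by edgeR without WT replicate 1. In all 13 were below 0 and the median was -0.07. The list median of degradation genes was 0.21 with library size alone, against 0.26 for all genes.

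The ATF4 program beyond the 5 genes was split by function. In amino acid synthesis and transport, 19 of 20 genes were tested (Pycr1 fell under the filter), and edgeR called 4 higher and 1 lower. That is 26.3% of the list, beside 12.4% of all genes. Calls dropped from 5 to 2 without CgA-KO replicate 1, to 3 without CgA-KO replicate 2 or 3 and to 1 without WT replicate 3, and DESeq2 called 8. The median was 0.56. Got1, the cytosolic aspartate aminotransferase, rose from 87.6, 125 and 111 CPM in WT to 321, 357 and 300.5 CPM in the CgA-KO group, 3.02-fold higher (log2 fold change 1.60, SE 0.22, adjusted p = 0.00513), and was called in every alternative fit. Slc7a1, a transporter of cationic amino acids, rose from 1.61, 0.425 and 0.593 CPM to 3.34, 5.49 and 3.14 CPM (2.28, SE 0.53, edgeR adjusted p = 0.0264). Slc7a1, named after its values were seen, lost its call without CgA-KO replicate 1 (2.41) or 2 (2.00) or WT replicate 2 (1.92) or 3 (2.05). Aldh18a1, an enzyme of proline synthesis, rose from 2.06, 0.511 and 1.02 CPM to 5.80, 8.56 and 5.07 CPM (2.51, SE 0.49, edgeR adjusted p = 0.0149). Its call was lost without CgA-KO replicate 2 (2.28) or WT replicate 3 (2.42).

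Slc1a4, a neutral amino acid transporter, rose from 0.985, 1.40 and 0.847 CPM to 2.69, 3.39 and 3.99 CPM (log2 fold change 1.63, SE 0.37, edgeR adjusted p = 0.024), a call lost without CgA-KO replicate 1 (1.80), 2 (1.66) or 3 (1.52) or WT replicate 3 (1.46). Slc6a9, a glycine transporter, fell from 37.0, 36.7 and 48.1 CPM to 13.1, 23.9 and 17.3 CPM (-1.16, SE 0.24, edgeR adjusted p = 0.0179), a call lost without CgA-KO replicate 1 (-0.95), CgA-KO replicate 3 (-1.11) or WT replicate 3 (-1.03) and with library size alone (-0.90). For serine synthesis, Psat1 gave a log2 fold change of 1.47 (SE 0.67, edgeR adjusted p = 0.184). Phgdh had 1.08, 0.255 and 0.212 CPM in the WT group and 0.789, 7.45 and 1.21 CPM in the CgA-KO group. The high mean of Phgdh in CgA-KO came from replicate 2, and its log2 fold change of 2.79 (SE 0.98) had an adjusted p of 0.0971 by edgeR and 0.0213 by DESeq2.

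Of 13 aminoacyl-tRNA synthetases, which charge tRNAs with amino acids, edgeR called 1, Cars, the cysteine enzyme, lower. It fell from 29.0, 29.7 and 25.0 CPM in WT to 16.4, 20.1 and 15.4 CPM in the CgA-KO group (log2 fold change -0.69, SE 0.18, adjusted p = 0.04). The call was lost without CgA-KO replicate 1 (-0.62) or 3 (-0.58) and without WT replicate 1 (-0.62), 2 (-0.64) or 3 (-0.77), and the adjusted p was 0.237 with library size alone, 0.0504 with a filter of 1 count in total and 0.0547 with upper-quartile factors. The median of the synthetases was 0.15, with 6 below 0, and the 1 call is 7.69% of the list, beside 12.4% of all genes.

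Among transcription factors, stress regulators and hepatokines of the program, 16 of 17 genes were tested (Stc2 fell under the filter). edgeR called 3 higher and none lower, with a median of 0.36. The 3 are 18.8% of the list, beside 8.60% of all genes called higher. DESeq2 called 6, and edgeR called 1 without CgA-KO replicate 1 and 0 without WT replicate 3. Jdp2, a repressor of AP-1 and ATF sites, rose from 1.97, 1.19 and 0.720 CPM to 5.90, 4.38 and 5.38 CPM (2.05, SE 0.40, edgeR adjusted p = 0.0152). Ndrg1, a gene raised by several stresses, rose from 4.93, 8.47 and 5.89 CPM to 14.0, 17.0 and 14.3 CPM (1.22, SE 0.25, edgeR adjusted p = 0.0166). In both, the CgA-KO livers lay close together and above WT. The Jdp2 call was lost without CgA-KO replicate 1 (1.99), WT replicate 2 (2.02) or WT replicate 3 (1.74), and that of Ndrg1 without WT replicate 3 (1.15).

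Ddit4, an inhibitor of mTORC1, rose from 3.67, 2.38 and 2.54 CPM to 6.50, 24.6 and 5.83 CPM (2.12, SE 0.56, edgeR adjusted p = 0.0396). CgA-KO replicate 2 stood 3.99 times above the mean of the other CgA-KO livers, and the Ddit4 call was lost without it (1.16), without CgA-KO replicate 1 (2.45) and without WT replicate 1 (2.35), 2 (2.01) or 3 (2.04). limma-voom gave 1.93 with an adjusted p of 0.0906, and a filter of 1 count in total gave 0.0999. Atf3, a stress-induced partner of ATF4 and CHOP, had 0.985, 1.96 and 0.678 CPM in the WT group and 2.79, 2.98 and 6.14 CPM in the CgA-KO group, without overlap, a log2 fold change of 1.70 (SE 0.50) and an adjusted p of 0.0595 by edgeR. Atf3 was called by DESeq2 (adjusted p = 0.0184), and by edgeR without WT replicate 2 (2.28), with library size alone (2.03), with at least 10 counts in every library (1.73) and with at least 1 count in total (1.69). The hepatokines, hormones that liver releases under stress, did not pass the test. Fgf21 gave -0.86 (SE 0.53, edgeR adjusted p = 0.321) and Gdf15 gave 0.42 (SE 0.43, edgeR adjusted p = 0.573).

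Within the 3 ATF4 lists, 48 genes were tested, and 19 of them (39.6%) had their highest level in CgA-KO replicate 2, beside 20.8% of all genes. Against the mean of the other CgA-KO livers, that liver held 7.45 times as much Phgdh, 3.61 times as much Slc7a5 and 2.74 times as much Cebpb. Other genes of the lists went the other way, with 0.282 times as much Slc7a11, 0.415 times as much Fgf21 and 0.498 times as much Mthfd2. Slc7a5, Cebpb, Slc7a11 and Mthfd2 were chosen after their values were seen. The same liver had 66.8 CPM of Mpo, an enzyme of neutrophil precursors, where the other 5 had 0 to 0.672 CPM. The summed level of 8 neutrophil and blood-forming cell markers was 2.63 to 10.5 CPM in the WT group and 29.5 to 354 CPM in the CgA-KO group. Whether these cells had a part in its levels of Trib3, Chac1 and Ddit4 was not tested.

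Creb3l1, an ER-bound relative of ATF6, was the 1 gene called by edgeR in a list of 5 that holds Creb3, Creb3l1, Creb3l2, Creb3l3 and Crebzf, which is not itself a CREB3 family member. It rose from 0.716, 0.425 and 0.254 CPM in WT to 1.44, 2.89 and 1.61 CPM in the CgA-KO group (log2 fold change 2.16, SE 0.53, adjusted p = 0.0316). Creb3l1 had only 8, 10 and 6 counts in WT and 31, 91 and 36 counts in CgA-KO libraries. It was not tested where at least 10 counts were required in every library. Its call was lost without CgA-KO replicate 1 (2.37), 2 (1.82) or 3 (2.31) or WT replicate 2 (2.13) or 3 (1.83). The hepatocyte member Creb3l3, named after its values were seen, had 268 ± 43.3 CPM in the WT group and 186 ± 26.0 CPM in the CgA-KO group, did not overlap and was not called (-0.53, SE 0.22, edgeR adjusted p = 0.149).

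Chaperones outside the ER served as a comparison. Of 16 cytosolic and mitochondrial heat shock genes edgeR called 1 lower, Hsph1, an Hsp110 co-chaperone, at 38.4, 27.3 and 19.9 CPM in the WT group and 15.0, 8.56 and 12.2 CPM in the CgA-KO group (log2 fold change -1.26, SE 0.29, adjusted p = 0.0254). The call was lost without CgA-KO replicate 2 (-1.03) or 3 (-1.25) or WT replicate 1 (-0.95) or 2 (-1.29) and with library size alone (-1.01). The median of this list was -0.22, with 13 below 0. With library size alone it was 0.06, against 0.26 for all genes. In 5 of the 16 all CgA-KO livers lay below all WT livers, beside 14.6% of all genes. The 1 call is 6.25% of the list, beside 12.4% of all genes.

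Cell type markers and clock genes are given here because they differed between the same livers. All 10 hepatocyte markers were tested and edgeR called none, with 2 at an unadjusted p under 0.05 and a median of -0.19; Alb, the main secreted product of hepatocytes, had a log2 fold change of -0.23 (SE 0.39, edgeR adjusted p = 0.743). Plasma cells, which have a large ER and high Xbp1, had 7 markers, of which 6 were tested and 1, Prdm1, was called higher. Prdm1 had only 9, 8 and 5 counts in WT and 56, 84 and 58 counts in CgA-KO libraries. Jchain gave 0.63 (SE 0.56, edgeR adjusted p = 0.499), Mzb1 lay at 4.84, 0.128 and 0.297 CPM in the WT group and 1.39, 1.11 and 0 CPM in the CgA-KO group, and Tnfrsf17 was at 0 in every library. The summed plasma cell markers were 114 to 151 CPM in WT livers and 153 to 195 CPM in CgA-KO livers, nearly all of it Sdc1, which hepatocytes also express, at 117, 144 and 111 CPM in WT and 145, 144 and 185 CPM in CgA-KO livers. The part of plasma cells in the levels of the UPR genes was not tested.

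Kupffer cells, the macrophages of liver, had 9 of 10 markers called higher by edgeR, with a summed level of 131 to 342 CPM in the WT group and 1431 to 2057 CPM in the CgA-KO group. Clec4f, restricted to them, had 96.1, 29.1 and 30.6 CPM in the WT group and 629, 289 and 290.5 CPM in the CgA-KO group (log2 fold change 2.96, SE 0.54, adjusted p = 0.0122), a call lost without WT replicate 2 (2.67) or 3 (2.69). Of T and NK cell markers 5 of 8 were called higher, of B cell markers 0 of 6 (1 at an unadjusted p under 0.05), and of endothelial and stellate cell markers 4 of 10 higher and 1 lower. Among neutrophil markers 3 of the 4 tested were called higher, S100a8 among them at 3.81 (SE 0.70, edgeR adjusted p = 0.0125), a call lost without any 1 of the WT replicates 1 (3.73), 2 (4.31) and 3 (3.55) and with a filter of 1 count in total (3.81). The part of these cells in the levels of the ER stress genes was not tested.

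Of 12 core clock genes edgeR called 3 higher and 4 lower, or 4 in all without CgA-KO replicate 1 or WT replicate 3. Besides Arntl and Per2 these were Npas2 and Clock, higher, and Per3, Nr1d2 and Dbp, lower. Npas2 had only 3 counts in each WT library. Arntl (BMAL1), which peaks opposite to the Per genes in the daily cycle, had 1.25, 0.553 and 0.635 CPM in the WT group and 19.5, 15.0 and 15.7 CPM in the CgA-KO group (log2 fold change 4.44, SE 0.34, adjusted p = 0.00164). Per2 had 81.1, 30.2 and 67.5 CPM in the WT group and 10.3, 6.85 and 9.68 CPM in the CgA-KO group (-2.74, SE 0.36, edgeR adjusted p = 0.00484). Neither feeding state nor time of day at collection is given in the sources used here. Their part in the levels of Herpud1, Sdf2l1 and the chaperones was not tested.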

How the data were processed

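One poly(A) library per liver was sequenced with paired reads for 3 WT and 3 CgA-KO mice. The authors quantified reads with Salmon 1.4.0 against the GRCm38 transcriptome and deposited raw counts, whole numbers for 32212 gene symbols. How transcripts were summed to genes is not given in the sources used here. All 6 columns were matched to samples by name.

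The counts were tested with edgeR 4.0.16 in R 4.3.3 (filterByExpr with a minimum count of 10, TMM, robust quasi-likelihood, two-sided, Benjamini-Hochberg over 13867 genes, calls under 0.05). Standard errors were derived from the F statistics, and intervals are at 95%. DESeq2 1.42.0 and limma-voom 3.58.1 were alternatives. The procedure was tested on simulated data. Positions follow GENCODE for GRCm38 and promoters follow RefSeq. Each library came from 1 liver and counted as 1 sample, and replicates differed by more than sampling noise. The p-values set the genotype difference against the spread between these livers.

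The members and lists were chosen with earlier results of these data known. Named are all members, fixed sensors, effectors and cell markers, and up to 3 called genes with the smallest p per direction of each list. Exceptions are stated. Raw reads were not analysed here.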

Additional observations from a re-analysis of the deposited data

How the results depend on the processing

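With 3 livers per genotype, the smallest log2 fold change called among named genes was -0.69 (Cars), and depth limited Chac1, at 3 counts in WT replicate 1. The calls of most other genes moved with single livers, and the cause was not tested. DESeq2 called 2 of the 10 members (Herpud1, Sdf2l1), beside 2592 of the 15083 genes to which it gave an adjusted p. Its calls in the lists were 2 sensors, 6 chaperones, 2 degradation genes, 4 of ER entry, 8 of amino acid supply, 6 regulators and 3 heat shock genes. At an adjusted p under 0.01, edgeR called 360 of all genes, 1 chaperone, 1 gene of amino acid supply, 4 clock genes, and 0 of ER entry, synthetases, regulators, CREB3 list and heat shock genes, where fewer calls follow from the stricter threshold. Scaling by library size alone gave 1 sensor, 1 chaperone, 1 degradation gene, 0 synthetases and 0 heat shock genes. At least 10 counts in every library gave 1 sensor and 0 genes of the CREB3 list, and left Chac1 and Creb3l1 untested. limma-voom gave 1 sensor and 2 heat shock genes. A total of at least 1 count gave 1 degradation gene, 0 synthetases and 2 heat shock genes. Upper-quartile factors gave 1 sensor and 0 synthetases. Over fits without 1 library each, calls ranged from 394 to 2126 for all genes, 0 to 1 for members, 0 to 1 for sensors, 1 to 3 for chaperones, 0 to 1 for degradation, 0 to 2 for ER entry, 1 to 6 for amino acid supply, 0 to 1 for synthetases, 0 to 3 for regulators, 0 to 1 for the CREB3 list, 0 to 1 for heat shock and 4 to 7 for clock genes.

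Deviations from the group mean of same-numbered livers correlated at 0.199, 0.0127 and -0.0659. CgA-KO replicates 1 and 2 correlated best with the WT liver of their own number, and CgA-KO replicate 3 with WT replicate 2 (0.234). Deviations within a group of 3 cancel, so these values cannot settle whether the numbers pair the livers. A replicate block gave 1498 calls over all genes, 0 members, 1 sensor, 0 synthetases and 0 genes of the CREB3 list.

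Over the named genes and alternatives, 540 log2 fold changes kept their direction and side of the threshold, 67 lost the call, 13 gained it and 18 changed sign. With library size alone, Dnajb9 was 0.063, Atf4 0.14, Atf6 0.21, Eif2ak4 0.18 and Alb 0.082, while the median of all genes was 0.26. Over fits without 1 library each, the sign also changed in Dnajb9 (-0.43 to 0.036, above 0 without CgA-KO replicate 2), Chac1 (-0.58 to 1.57, below 0 without CgA-KO replicate 2), Atf6 (-0.14 to 0.0074), Ppp1r15a (-0.035 to 0.29), Asns (-0.70 to 0.23, above 0 without WT replicate 1), Ddit3 (lowest -0.024, without WT replicate 3, and -0.01 without WT replicate 2), Eif2ak4 (-0.22 to 0.041), Alb (-0.40 to 0.0053) and Mzb1 (-1.55 to 1.98).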
